A study of Mus musculus with 4 samples.

Results

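Cytosolic ribosomal proteins, together with ribosomal RNA, form the small (40S) and large (60S) subunits that translate mRNA outside the mitochondria. Each is encoded by a highly expressed, short gene, and most of these mRNAs begin with a cytosine followed by a run of pyrimidines, the 5′ terminal oligopyrimidine (TOP) motif, through which LARP1 and mTOR control their translation. Mammalian genomes also carry many processed copies of these genes, which were made from reverse-transcribed mRNA and resemble their parents closely.

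The genes were chosen by symbol, as protein_coding rows named Rps or Rpl with a number and an optional suffix, or Rplp0, Rplp1 or Rplp2. This matched 96 of the 55487 genes counted. They were 76 standard ribosomal protein genes, of which 30 encode small-subunit and 46 large-subunit proteins, 8 paralogs, and 12 genes whose symbols match although their products are not ribosomal proteins. The last 12 are 10 ribosomal S6 kinase genes, Rps19bp1, and Rps23rg1. Rpsa and Fau encode ribosomal proteins under other symbols and are described apart. Of the 96 genes, 94 held at least 10 counts in total and were tested. The others were Rpl3l, with 2 counts, and Rpl10l, with none.

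Wild-type mouse embryonic fibroblasts (MEFs), primary cells prepared from embryos, were cultured for 24 h with pigment epithelium-derived factor (PEDF, 100 ng/mL), a secreted serpin, or without it. RNA with a poly(A) tail was sequenced as directional paired-end libraries. Experiments 1 and 2 each used their own embryos and gave 1 control and 1 PEDF library, so there were 2 libraries per group. The labels give passage 2, while the text of the study names a later one. Of the markers checked, those of fibroblasts summed to 13138 to 17410 TPM in a library and those of endothelial cells to 3.57 to 4.04. The 5 macrophage markers, all detected, summed to 181 and 101 TPM in control 1 and 2 and to 177 and 147 in PEDF 1 and 2. The summed markers of epithelial cells (71 to 89 TPM), skeletal muscle (217 to 293) and erythroid cells (0 to 3.36) were also low. Library totals lay between 14722848 and 18144640 counts.

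The motif is shown for 4 members that are described below and for 2 without it, as 30 bases that surround the transcription start annotated by RefSeq in GRCm38.p6, with 15 on each side. Capitals mark a C followed by at least 6 bases that are C or T. The windows lie at chr4:86857353-86857382 (minus strand) for Rps6, chr14:18270972-18271001 (minus) for Rpl15, chr2:39005117-39005146 (minus) for Rpl35, chr7:3704026-3704055 (plus) for Rps9, chr5:107900513-107900542 (plus) for Rpl5 and chr5:115559452-115559481 (plus) for Rplp0.
Rps6: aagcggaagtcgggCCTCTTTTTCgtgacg
Rpl15: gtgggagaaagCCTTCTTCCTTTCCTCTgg
Rpl35: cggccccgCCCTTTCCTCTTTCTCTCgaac
Rps9: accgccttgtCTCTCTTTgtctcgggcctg
Rpl5: tctcacgtcgcttgcgtgctggtggtgcta
Rplp0: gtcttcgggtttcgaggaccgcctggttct
Such a tract, read in the direction of transcription, lay in 29 of the 56 members with an entry (51.8%) and in 16.4% of all 27025 genes with one. A C followed by 4 pyrimidines exactly at the annotated start was found in 13 members (23.2%) and in 3.01% of all genes. Annotated starts can be some bases away from those used in MEFs, so a window without the tract says only that these letters are not there.

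At the mRNA level, the 76 genes were expressed strongly and unequally. They took 4.31% of the counts in control 1, 3.75% in control 2, 4.51% in PEDF 1 and 4.25% in PEDF 2. Their summed level was 75517, 68324, 74984 and 75534 TPM (a share of all transcripts, corrected for length) in the same order. The sum was lowest in control 2, while the other libraries differed by less than 1000 TPM. The median member had 726 TPM over the libraries, with quartiles of 419 and 1140. Of the 76 members, 48 lay within 2-fold of the median and 73 had more than 100 TPM.

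Rplp1, an acidic protein of the ribosomal stalk, had the highest level, with 5725 and 4639 TPM in control 1 and 2 and 5411 and 5203 in PEDF 1 and 2. Next came Rplp0, the base of the stalk (mean 3775 TPM), Rpl41 (3206), Rps2 (3099) and Rps3a1 (2649). Their order was the same in each library except that Rpl41 lay below Rps2 in control 2. The lowest members were Rps15a (121 TPM), Rpl35a (118), Rpl13a (97.8), Rps10 (6.99) and Rpl24 (2.04). For Rps15a, Rpl35a and Rpl13a the ranges over the 4 libraries overlapped, but Rpl13a was the lowest of the 3 in each library, while the order of Rps15a and Rpl35a changed between libraries. Most reads that resemble Rps10 and Rpl24 were counted on copies of these genes. The counts on the Rpl24 copies were low as well, with 74 to 110 in a library on Gm9385, the largest. The cause of the low level of Rpl24 was not tested.

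**Figure D1:**
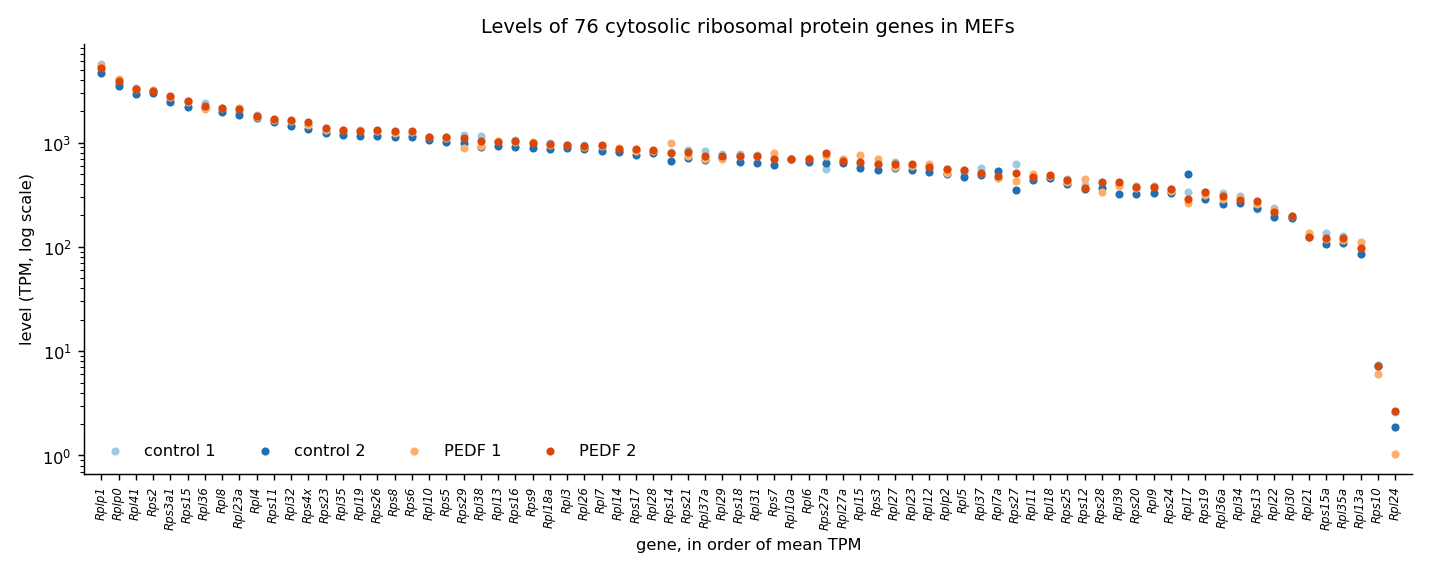
Level of each of the 76 standard ribosomal protein genes (y axis, TPM on a log scale) in order of its mean (x axis), with 1 point per library. Most members lie above 100 TPM, and Rps10 and Rpl24 stand far below the others.

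Reads were counted by the authors only where they mapped uniquely, so a near-identical copy changes how many reads a gene keeps. A search of the coding sequences against annotated pseudogenes and paralogs, at 90% identity over at least 50% of the coding sequence, matched 989 copies, of which 528 held a count. At least 1 copy was matched for 73 of the 76 members. The median member had 2.08% of the reads of its family on the copies with counts, but 19 members had more than 10% and 3 more than 50%. The latter were Rps10 (96.3%), Rpl24 (91.7%) and Rpl17 (61.6%).

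Rps10 kept 90, 102, 80 and 104 counts in control 1, control 2, PEDF 1 and PEDF 2, and its copy Rps10-ps2 on chromosome 16 held 2043, 2285, 2447 and 2495. Rpl24 kept 14, 12, 6 and 17 counts. Both genes also overlap another gene annotated on the same strand, Rps10 with RPS10-NUDT3 over 475 of 2311 exon bases and Rpl24 with Gm28037 over 484 of 1030. Neither of those genes had a count. The same holds for Rpl13a, which shares 621 of 2114 exon bases with Gm45713. The part of the overlaps in these low levels was not tested.

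Some copies cannot be told from the gene by the coding sequence at all, and Rps27 with Rps27rt, a protein_coding gene without the introns of Rps27, is shown as 1 such pair. Their coding sequences of 252 bases have 0 differences, as have those of Rpl12 and Gm10275 (495 bases) and of Rpl5 and Gm15500 (891 bases). The first 60 bases are shown because a read within them cannot be assigned to either gene by its sequence. Rps27 lies on chromosome 3 from 90212522 to 90213651 and Rps27rt on chromosome 9 from 114982366 to 114982739, both on the minus strand (GRCm38).
Rps27: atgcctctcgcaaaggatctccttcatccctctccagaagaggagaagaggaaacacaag
Rps27rt: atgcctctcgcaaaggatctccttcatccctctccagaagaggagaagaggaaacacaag
Rps27a, which encodes a ubiquitin fused to a small-subunit protein, and its copy Rps27a-ps2 differ at 1 of 467 compared bases. The 61 bases around it are shown, with the differing base in capitals. Rps27a lies on chromosome 11 from 29545846 to 29548109 (minus strand) and the copy on chromosome 9 from 83409660 to 83410126 (plus strand).
Rps27a: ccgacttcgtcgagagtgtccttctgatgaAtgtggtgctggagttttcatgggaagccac
Rps27a-ps2: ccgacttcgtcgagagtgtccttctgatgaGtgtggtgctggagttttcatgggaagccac

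The first comparison asked whether PEDF changed the mRNA of these genes. With the treatment as the only term, no member passed an adjusted p of 0.05 in edgeR's quasi-likelihood test (0 of 76), and 1 of all 19384 genes tested did (0.00516%). At an unadjusted p of 0.05, 7 of the 76 members passed in edgeR, where 6.88% of all genes did. DESeq2 called 1 member, Rps27a, against 0.0115% of all genes. Limma on log2 TPM called none, with 2 of 76 at an unadjusted p of 0.05, where 5.14% of all genes passed. The median log2 fold change of the 76 genes was 0.09, with 64 of them above 0. The median was 0.09 over the small-subunit and 0.07 over the large-subunit members, and 0.001 over all genes tested. Among the members, the smallest adjusted p in the edgeR test belonged to Rps27a, at 0.279. When control 1 was left out, 3 members were called, Rpl17 (log2 fold change -0.83), Rpl39 (0.35) and Rps27 (0.47), against 1.09% of all genes (205 of 18792). The lone control library was then assumed to vary like the PEDF libraries, whose spread alone these calls rest on. When control 2 or either PEDF library was left out, no member was called.

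Because each experiment had its own embryos, a fit was also made in which PEDF is set against the control of the same experiment (the replicate block). In this fit 18 members were higher and 1 was lower with PEDF, against 1.67% and 2.07% of all genes tested. Of the small-subunit members 9 of 30 rose, and of the large-subunit members 9 of 46 rose and 1 fell. The median log2 fold change was 0.09, a rise of 6.42%. In bulk RNA, fewer expressing cells and less RNA per cell cannot be told apart. DESeq2 with the same block called 9 of the 73 members to which it gave an adjusted p, all of them higher, where 1.76% of the 1817 genes with an adjusted p were higher and 4.79% were lower. Of the 19 members called in edgeR, Rps27a, Rps14, Rpl15, Rps3, Rplp0, Rpl5, Rps7, Rpl23a and Rps6 were called by DESeq2 too. Rps3a1, Rps4x, Rps9, Rps13, Rpl9, Rpl12, Rpl17, Rpl35 and Rpl39 were not, and Rpl13a was given no adjusted p. With only 4 libraries the blocked fit leaves 1 residual degree of freedom per gene, and the spread is largely taken from other genes.

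Rps27a, counted without its copies, had the largest rise. It had 387 and 430 CPM (counts scaled to the TMM-adjusted library size) in control 1 and 2, and 529 and 539 CPM in PEDF 1 and 2. Both PEDF libraries lay above both control libraries, with means of 534 ± 7.02 and 408 ± 30.1 CPM (SD, n = 2). The log2 fold change in the blocked edgeR test was 0.39 (SE 0.04, adjusted p = 1.7e-15). Rps14, a small-subunit protein of the platform region, had 690 and 553 CPM in control 1 and 2 and 860 and 662 CPM in PEDF 1 and 2. PEDF was higher within each experiment, but PEDF 2 lay below control 1, so the groups overlapped (0.29, SE 0.04, adjusted p = 5.71e-09 with the block in edgeR). Rpl15 of the large subunit had 545 and 486 CPM in control 1 and 2 and 682 and 565 CPM in PEDF 1 and 2. Both PEDF values lay above both control values (0.27, SE 0.04, adjusted p = 1.53e-07 with the block in edgeR). In the fit without the block, 15 of the 19 called members moved by more than 1.5 times when some library was left out, although none turned its direction. Rps27a was among the 4 that did not, at 0.31 to 0.46. Leaving out control 2 made 14 of them smaller and leaving out PEDF 1 made 7 smaller, while leaving out control 1 made 9 larger and leaving out PEDF 2 made 4 larger. Rps14 ranged from 0.09 without PEDF 1 to 0.47 without PEDF 2, and Rpl15 from 0.13 to 0.40 with the same libraries left out.

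Among the other small-subunit members that rose, Rps13 differed little within a group. It had 218 and 219 CPM in control 1 and 2 and 251 and 255 CPM in PEDF 1 and 2, and its log2 fold change was 0.21. Rps3, which lies at the mRNA entry channel and also acts in DNA repair, had 997 and 838 CPM in the control and 1128 and 965 CPM in the PEDF libraries. Its groups overlapped, although PEDF was higher in each experiment, and its log2 fold change was 0.07 without control 2 and 0.32 without control 1. Rps6, the substrate of the S6 kinases, had 665 and 626 CPM in control 1 and 2 and 738 and 714 CPM in PEDF 1 and 2, without overlap, and a log2 fold change of 0.17. Rps7 (0.19), Rps3a1 (0.15), Rps9 (0.14) and Rps4x (0.13) completed the group, each with an SE of 0.04. The value of Rps7 lay between 0.05, without PEDF 1, and 0.34, without control 1. Adjusted p-values of the 9 ranged from 1.7e-15 (Rps27a) to 0.04 (Rps4x) in the blocked edgeR test. Rps7 has a copy on the X chromosome, Rps7-ps3, with 2206 and 2218 counts in control 1 and 2 and 2823 and 2701 in PEDF 1 and 2.

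Among the large-subunit members, Rpl5 belongs with Rpl11 to the 5S particle, which binds MDM2 when ribosome assembly is disturbed. Rpl5 had 705 and 638 CPM in control 1 and 2 and 782 and 749 CPM in PEDF 1 and 2, without overlap, and rose by 0.19 on the log2 scale (SE 0.04). Rpl11 had 463 and 407 CPM in the control and 490 and 442 CPM in the PEDF libraries, and its log2 fold change of 0.10 had an adjusted p of 0.221 with the block in edgeR. Rplp0 had 2179 and 1994 CPM in control 1 and 2 and 2463 and 2222 CPM in PEDF 1 and 2. These groups did not overlap, and the log2 fold change was 0.17. Rpl13a (0.21), Rpl39 (0.18), Rpl23a (0.18), Rpl12 (0.16), Rpl9 (0.15) and Rpl35 (0.14) also rose, with adjusted p-values up to 0.0429 (Rpl35) in the blocked edgeR test. Rpl39 was higher with PEDF in experiment 2 alone, by 0.37, while its ratio in experiment 1 was -0.01, and without control 2 its log2 fold change was 0.02.

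Several of these genes share exon bases with a gene on the opposite strand, and the strand setting of the counting was not stated. Rpl23a shares 506 of its 847 exon bases with Tlcd1, which had 4782 to 5960 counts in a library. Rpl35 shares 821 of 1241 with Wdr38, which had 4784 to 5944 counts. Without strand, reads from such pairs cannot be told apart.

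Rpl17, a protein at the exit of the peptide tunnel, was the member that fell. It had 160 and 230 CPM in control 1 and 2 and 127 and 132 CPM in PEDF 1 and 2. Both PEDF libraries lay below both control libraries, and the log2 fold change was -0.58 (SE 0.05, adjusted p = 6.02e-26 with the block in edgeR). DESeq2 with the block gave -0.57 and did not call it (adjusted p = 0.148). Without control 2 the edgeR value without the block was -0.30 and without control 1 -0.83. Its 24 copies with counts held more reads than the gene, and the largest of them, Rpl17-ps10, had 2065 and 2363 counts in control 1 and 2 and 3082 and 2714 in PEDF 1 and 2. With the copies summed, the family had 428 CPM in both control libraries and 449 and 402 CPM in PEDF 1 and 2. The groups then overlapped, and the log2 fold change was -0.01 (adjusted p = 0.948 in the same test).

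**Figure D2:**
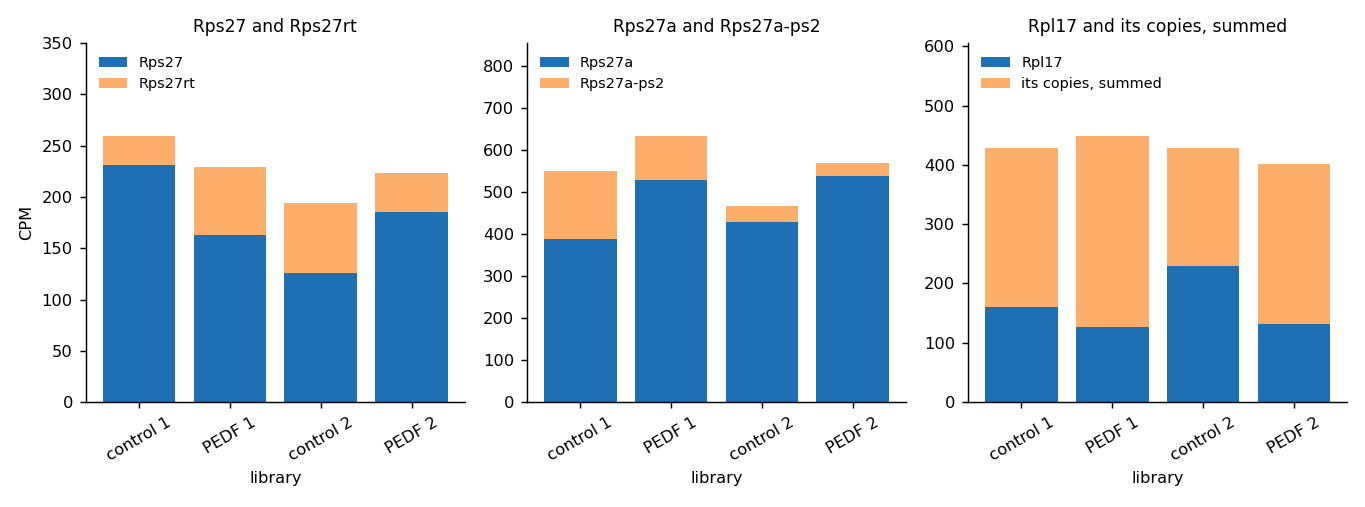
CPM in each library of Rps27 with Rps27rt, Rps27a with Rps27a-ps2, and Rpl17 with its 24 copies, drawn as stacked bars with the gene below and its copies above. The sum of the Rpl17 family stays between 402 and 449 CPM while the gene itself ranges from 127 to 230.

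Summing each of the 76 genes with its matched copies, a step added after the data were seen, left 17 members called in the blocked test. All 17 were higher with PEDF, against 1.68% of the 19100 genes and families tested, and none was lower, against 2.16%. These 17 were all called before summing, and Rpl17 and Rps4x (adjusted p = 0.0507 in edgeR) were not called afterwards. Rps27a had a smaller change, from 0.39 to 0.23 (adjusted p = 4.07e-05 in edgeR), which was then below those of Rps14 (0.29) and Rpl15 (0.27), and Rps27a-ps2 had 2416 and 653 counts in control 1 and 2 and 1622 and 538 in PEDF 1 and 2, lower with PEDF in each experiment. The spread among the 76 members in their within-experiment log2 ratios fell from an SD of 0.22 to 0.12 in experiment 1 and from 0.15 to 0.07 in experiment 2.

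**Figure D3:**
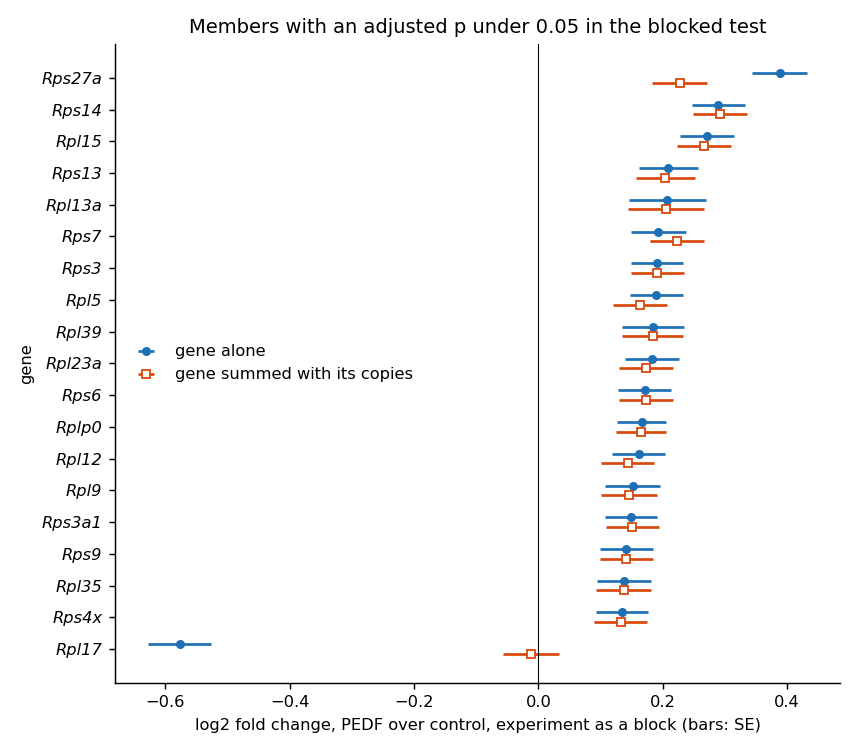
Log2 fold change of PEDF over control (x axis, with the experiment as a block, bars are SE) for the 19 standard members called in that test, each alone (filled circles) and summed with its copies (open squares). The 18 higher members lie between 0.13 and 0.39, and Rpl17 moves from -0.58 to -0.01 on summing.

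The second comparison set the experiments side by side. In experiment 1 the median log2 ratio of PEDF to control was 0.03 and 43 of 76 members were higher with PEDF. In experiment 2 the median was 0.17 and 72 members were higher. The median counting error of a member's log2 ratio was 0.02 in each experiment. Of the 76, 40 were higher in both experiments (52.6%, compared with 30.1% of all genes tested), 1 was lower in both, 32 were lower in experiment 1 and higher in experiment 2, and 3 were the reverse. With the trend of the ratios with gene length removed, a step described below, 26 members were higher in both (34.2%), compared with 27.3% of all genes tested and 36.9% of the 217 comparison genes. With 1 library per group in an experiment, the difference between the experiments was not tested. Both PEDF libraries exceeded both control libraries in 20 members (26.3%), compared with 18.9% of all genes tested.

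For these members, the 2 experiments differed more in their control than in their PEDF libraries. Control 2 was the lowest of the 4 libraries for 66 of the 76 members, against 30.1% of all genes tested and 146 of the 217 comparison genes described below. The median log2 difference of control 2 from control 1 was -0.19, and that of PEDF 2 from PEDF 1 was -0.04. Other genes of similar level with short principal transcripts were also lower in control 2 than in control 1, with a median difference of -0.13 over the 8 of 345 to 733 bases and -0.11 over the 12 of 733 to 1020 bases. Over the 569 of 1020 to 5179 bases it was -0.002. The members in the same length ranges had larger differences, of -0.22, -0.17 and -0.16 from shortest to longest. Control 2 also had the lowest sum of macrophage markers, the highest sum of fibroblast markers (17410 TPM, against 14572 in control 1, 13138 in PEDF 1 and 14908 in PEDF 2) and the largest library. The fibroblast sum was lower with PEDF in each experiment, and the part of these values in the low ribosomal protein level was not tested. Without control 2 the median log2 fold change of the members was 0.001, and without control 1 it was 0.20.

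**Figure D4:**
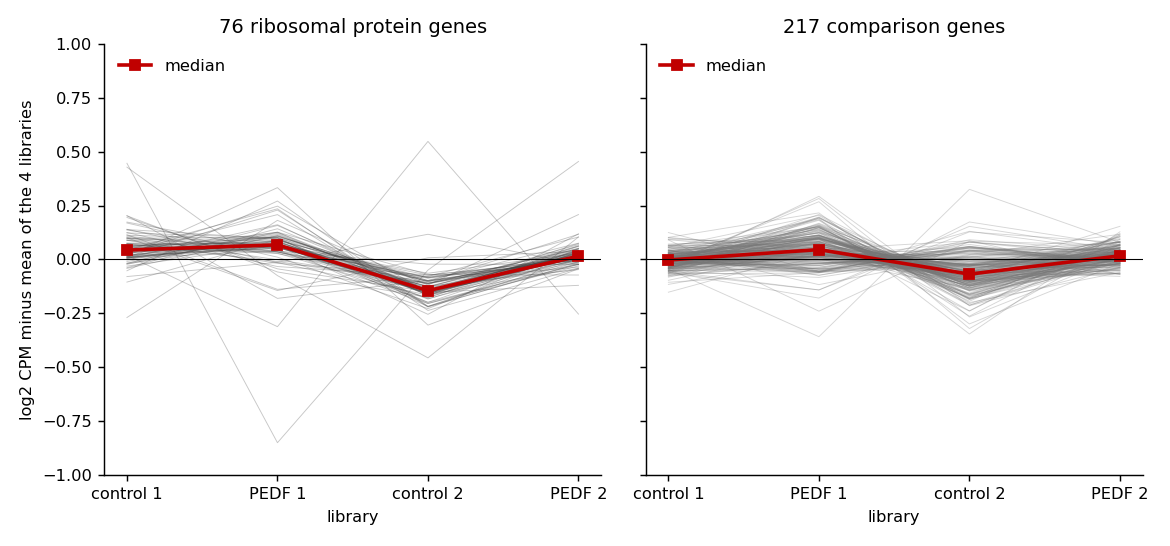
Log2 CPM of each gene minus its mean over the 4 libraries (y axis) by library (x axis), for the 76 ribosomal protein genes and for the 217 comparison genes, with 1 line per gene and the median in red. The ribosomal protein genes dip in control 2, by a median of 0.19 below control 1, and the comparison genes dip less.

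Rps27 and Rps27rt moved against each other. Rps27 had 232 and 125 CPM in control 1 and 2 and 163 and 185 CPM in PEDF 1 and 2, so it was lower with PEDF in experiment 1 (log2 ratio -0.50) and higher in experiment 2 (0.56). Rps27rt had 28 and 68.6 CPM in control 1 and 2 and 65.9 and 38.1 CPM in PEDF 1 and 2, with log2 ratios of 1.24 and -0.85. Their summed counts gave ratios of -0.18 and 0.20, which are smaller in size. Rps27l, a separate gene of the p53 response, had 187 and 156 CPM in the control and 185 and 173 CPM in the PEDF libraries.

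Members with short mRNAs were the ones most often lower in experiment 1. Among the 26 members with the shortest principal transcripts (345 to 733 bases), 7 were higher with PEDF in experiment 1 and 25 in experiment 2, with medians of -0.04 and 0.18. Among the 24 of intermediate length (733 to 1020 bases) 19 were higher in experiment 1, and among the 26 longest 17 were. The 8 other genes of similar level with principal transcripts of 345 to 733 bases had a median of 0.07 in experiment 1, with 6 of them higher with PEDF. Rps29, with 291 and 236 CPM in control 1 and 2 and 223 and 266 CPM in PEDF 1 and 2, had the lowest ratio in experiment 1 after Rpl24 and Rps27, at -0.38, against 0.17 in experiment 2. Rps28 (-0.25 and 0.18), Rpl38 (-0.26 and 0.21) and Rpl36a (-0.16 and 0.28) had the same pattern.

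**Figure D5:**
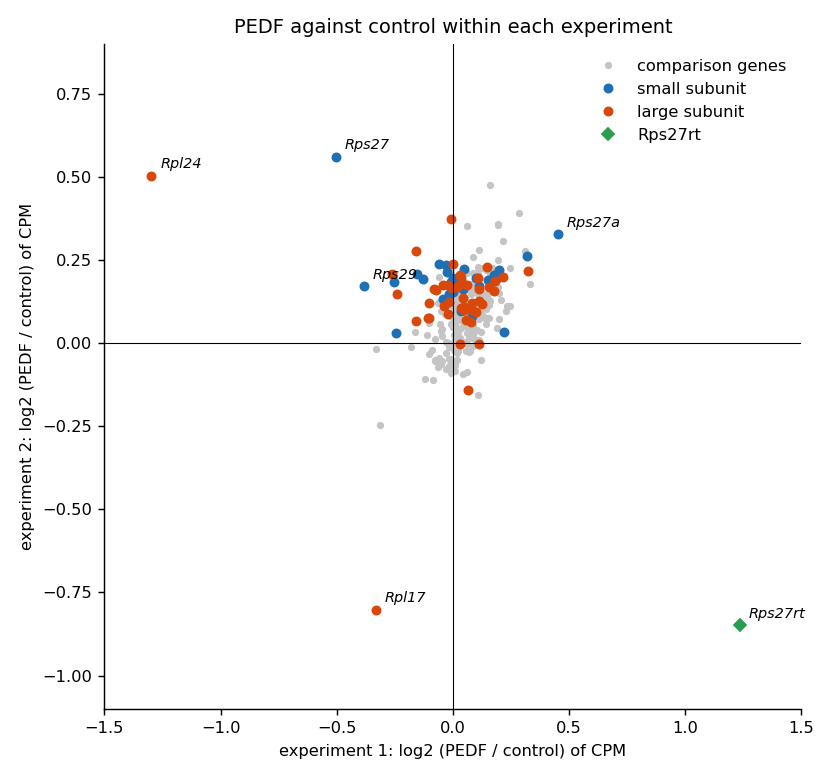
Log2 ratio of PEDF to control CPM in experiment 1 (x axis) and experiment 2 (y axis) for the small-subunit (blue) and large-subunit (orange) members, Rps27rt (green) and the 217 comparison genes (grey). Most members lie above 0 in experiment 2 and on both sides of 0 in experiment 1, and Rpl24 (6 to 17 counts), Rps27, Rps27rt and Rpl17 lie far from the others.

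The members were then compared with other short genes of similar level. These were the 217 other protein_coding genes whose exon length lay between 914 and 3562 bases and whose mean level lay between 184 and 923 CPM, the 10th and 90th percentiles of the members. Of the 76 members, 46 lie within both limits. The comparison genes are not free of related genes. They include Fau, which encodes a ribosomal protein, and Btf3, Eef1b2, Eif3f, Eif3h, Hnrnpa1 and Npm1 of the TOP mRNAs listed below. Wdr38, which overlaps Rpl35, is also among them. The median log2 fold change of the comparison genes was 0.07 without the block, and the members differed from it by 0.02. This difference was -0.03 without control 2 and -0.004 when the limits were set on principal transcript length, so its direction was not stable. Within the experiments, the comparison genes had medians of 0.05 and 0.09, where the members had 0.03 and 0.17. The difference of the members from them was -0.02 in experiment 1 and 0.08 in experiment 2. Of the comparison genes, 69.1% were higher with PEDF in both experiments, 44.2% had both PEDF libraries above both control libraries, and 35 of 217 were called in the blocked test (33 higher and 2 lower). Both shares were larger than those of the members, while the share called (16.1%) was smaller than the 25% of the members. With limits on principal transcript length, 23 of 98 comparison genes were called (23.5%), close to the share of the members, and 81.6% were higher in both experiments. These values describe 1 fixed set of genes and were not tested.

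Gene length went with the fold change over the whole table. When a smooth trend of the log2 ratios with gene length was removed beside the block, 6 members were higher and 2 lower, against 0.908% and 1.25% of all genes tested. Rpl15, Rpl5, Rps13, Rps14, Rps27a and Rps3 were the higher members and Rpl17 and Rps29 the lower ones. The median log2 fold change was 0.02 for the members and 0.01 for the comparison genes. Whether the length trend is technical or part of the response cannot be told apart here.

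Among the paralogs, Rpl22l1, an alternative to Rpl22, was called in the blocked edgeR test. It had 56.5 and 41.3 CPM in control 1 and 2 and 65.4 and 56 CPM in PEDF 1 and 2, with PEDF higher in each experiment, and a log2 fold change of 0.32 (SE 0.07, adjusted p = 0.000437). PEDF 2 lay just below control 1, so the groups overlapped, and the value without the block was 0.10 when control 2 was left out and 0.55 when control 1 was. DESeq2 with the block gave no adjusted p for it. Rpl22 had 241 and 193 CPM in the control and 238 and 218 CPM in the PEDF libraries (0.08, adjusted p = 0.494 in that test). Rpl7l1, at 109 to 129 CPM, had a log2 fold change of 0.13 and its partner Rpl7 one of 0.12, and neither was called. Rpl39l (23 to 40 counts) and Rpl36al (11 to 18 counts) were near the lower limit of detection, and Rpl36al shares 332 of 1353 exon bases with Gm49383 on the same strand. Rpl39 and Rpl36a had mean levels of 377 and 294 TPM, while their paralogs had 6.55 and 1.86. Rpl3l, a form of striated muscle, had 0, 0, 2 and 0 counts and Rpl10l, a form of testis, had 0 in all libraries, compared with 15580 to 18635 counts of Rpl3 and 12156 to 14402 of Rpl10. A count of 0 allows up to 3 counts, or 0.168 to 0.203 CPM.

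Rps19, whose human counterpart is mutated in Diamond-Blackfan anaemia, had 558 and 464 CPM in control 1 and 2 and 535 and 547 CPM in PEDF 1 and 2, with a log2 fold change of 0.09 (adjusted p = 0.304, blocked edgeR test). The stalk proteins other than Rplp0 were likewise not called. Rplp1 had 1014 and 800 CPM in the control and 985 and 902 CPM in the PEDF libraries, and Rplp2 had 410 and 360 CPM and 387 and 403 CPM.

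The 12 genes that share only the symbol were not called in either test. The 10 S6 kinase genes, which include Rps6kb1 (947 and 1200 counts in control 1 and 2, 994 and 1227 in PEDF 1 and 2), had log2 fold changes in the blocked test from -0.83 (Rps6kl1, 14 to 33 counts) to 0.17 (Rps6kc1). Rps19bp1 had 369 and 412 counts in the control and 351 and 449 in the PEDF libraries.

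Of the ribosomal proteins outside the symbol rule, Rpsa, at 1461 TPM, rose by 0.13 in the blocked edgeR test (adjusted p = 0.042), and Fau, at 999 TPM, had a log2 fold change of 0.06 (adjusted p = 0.604). Rack1, a scaffold on the 40S subunit, rose by 0.21. A list of 21 other mRNAs of translation taken as TOP mRNAs, Rpsa, Fau and Rack1 included, was also examined. Their motif was not checked here. Of the 21, 5 rose in the blocked test and none fell (Eef1b2, Tpt1, Eif3h, Rack1 and Rpsa), against 1.67% and 2.07% of all genes tested. In both experiments 17 were higher, against 30.1% of all genes. Of the comparison genes, 69.1% were, or 81.6% with limits on principal transcript length. The elongation factor genes Eef1a1 (0.09) and Eef2 (-0.004), and Npm1 (0.02), were not called. The median of this list was 0.07. With the length trend removed, 3 of the list were higher, Eif3h, Rack1 and Naca, against 0.908% of all genes, while Eef1b2 (adjusted p = 0.274 in edgeR), Tpt1 (0.189) and Rpsa (0.319) were no longer called.

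Other lists cover the genes that make ribosomes. Of 32 ribosome biogenesis genes, none rose and 2 fell in the blocked test (2.07% of all genes tested fell), Utp20 (-0.32) and Heatr1 (-0.21), both parts of the machinery that processes pre-ribosomal RNA. Their median was -0.03, with 17 lower and 6 higher in both experiments, where 28.8% of all genes tested were lower and 30.1% higher in both. Their difference from the ribosomal protein genes was not tested. Fbl (0.10) and Ncl (-0.01) were not called. Of 11 genes of RNA polymerase I and its factors, Polr1a, its largest subunit, fell by 0.22 and no gene rose, and Ubtf had 0.02. Of 13 regulators, Myc was the 1 that fell, by 0.26, again against 2.07% of all genes (adjusted p = 0.011 in the blocked edgeR test), and Larp1 (-0.13, adjusted p = 0.101) and Mtor (-0.08, adjusted p = 0.68) were not called. With the length trend removed, Utp20, Nop2 and Myc were lower, where 1.25% of all genes were, and Heatr1 (adjusted p = 0.181 in edgeR) and Polr1a (0.308) were not called. In the test without the block none of these genes was called.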

How the data were processed

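PolyA RNA of 2 control and 2 PEDF-treated MEF cultures was sequenced. Per the labels and the methods of the study, the authors trimmed reads (Trimmomatic 0.38), aligned them (HISAT2 2.1.0) to mm10 and deposited raw counts of uniquely mapped reads (featureCounts 1.6.3). TPM values were also deposited by the authors. The annotation release is not given in the sources used here, and 54784 of 55487 genes have the coordinates of GENCODE M21, from which exon lengths, coding sequences and overlaps were taken. Counts were compared with edgeR 4.0.16 (TMM, robust quasi-likelihood, Benjamini-Hochberg over 19384 genes with at least 10 counts in total), with the treatment as the only term. The design of the study's own test is not given in the sources used here. SE is the log2 fold change divided by the root of F. The labels give each experiment its own embryos, so the experiment number pairs libraries. As a check, log2 differences of experiment 2 from 1 were set side by side, and those of the control libraries went with those of the PEDF libraries (Pearson's r = 0.424 over the 10722 genes whose mean log2 CPM exceeded 3; genes are not replicates). Over the 76 ribosomal protein genes alone they ran against each other (r = -0.212), so the pairing rests on the labels. DESeq2 1.42.0, limma 3.58.1 and the other alternatives are described below. Copies were found with blastn 2.17.0. Scripts were tested on simulated data. Without the block, p-values measure the spread between 2 libraries per group (with 1 left out, its group is assumed to vary like the other). With the block they measure how far the 2 within-experiment ratios differ, with the spread largely taken from other genes. Intervals and limits cover counting error only. The members and lists were chosen with earlier results of these data known. Genes are named when called with or without the block, when among the 5 highest or lowest, or as listed paralogs, well-known members, relatives and regulators. Rps29, Rps28, Rpl38, Rpl36a and Rps27rt, the copies and the overlapping genes were chosen after their values were seen. Rps23rg1, a standard member by the wording of the rule, was set apart for its name. Values of 1 listed gene are not reported here.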

Additional observations from a re-analysis of the deposited data

Results flagged for a closer look

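Of the 76 standard ribosomal protein genes, 32 were lower with PEDF in experiment 1 and higher in experiment 2. Rps27 had log2 ratios of -0.50 and 0.56 in experiments 1 and 2, and Rps27rt, which has the same coding sequence, had 1.24 and -0.85. Each was marked because the 2 experiments moved in opposite directions. With 1 library per group in each experiment, these differences were not tested.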

How the results depend on the processing

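The limits are those of 2 libraries per group. Without the replicate block, 0 members were called with RLE factors, with no scaling factors, with filterByExpr, with limma or with copies summed, as in the edgeR test of the report, and 1 with DESeq2 and 3 with no filter on low counts. With the replicate block, which compares paired libraries, 19 members were called in edgeR, 9 in DESeq2, 8 with the length trend also removed, 17 with copies summed and 7 with both. Over all genes the numbers called were 1 in edgeR, 3 in DESeq2, 106 with no filter, 0 with filterByExpr and limma, 726 with the replicate block, 119 with it in DESeq2 and 419 with the length trend also removed. Leaving out each library in turn gave 0 to 3 called members and a median log2 fold change of 0.0014 to 0.20, the lowest without control 2 and the highest without control 1. Removing the length trend lowered the number higher in both experiments from 40 to 26. The other values of the medians and of the difference from comparison genes moved by less than the spread between the experiments (0.099 and 0.071). The difference lay between -0.035, without control 2, and 0.089, without control 1, and was -0.0038 with limits on principal transcript length. Keeping Rps23rg1 among the standard genes added no call. Family sums, principal transcript length and the Rps23rg1 setting were chosen after seeing the data. No setting that used each library turned the sign of a member called with the replicate block. Directions of other named genes turned as follows, and of the values below only that of Rps27 without control 1 (0.47, adjusted p = 0.00503 in edgeR) was called. With the replicate block, Rps27 had 0.023 in edgeR and 0.028 in DESeq2, and it had 0.0049 with limma and 0.014 with copies summed and the block. With the length trend removed, the log2 fold change was -0.011 for Rplp1, -0.0022 for Rpl10, -0.031 for Rplp2, -0.026 for Rps27l, -0.070 for Rpl39l, -0.057 for Rpl36al and -0.022 for Rpl36a. With copies summed as well it was -0.015 for Rplp1, -0.0021 for Rpl10, -0.031 for Rplp2 and -0.019 for Rpl36a. With copies summed, Rps10 had 0.146, and 0.146 with the block and 0.081 with the length trend also removed, and Rpl24 had 0.216, 0.216 and 0.122. Leaving out single libraries gave ranges that crossed 0, from -0.11 to 0.24 for Rplp1, -0.16 to 0.22 for Rps15a, -0.054 to 0.13 for Rplp2, -0.085 to 0.24 for Rpl22, -0.070 to 0.20 for Rps27l, -0.21 to 0.31 for Rpl39l, -0.045 to 0.22 for Rps19, -0.17 to 0.27 for Rpl36al, -0.087 to 0.17 for Rpl35a, -0.14 to 0.26 for Rpl36a, -0.41 to 0.47 for Rps27, -0.019 to 0.20 for Rpl41 and -1.04 to 0.24 for Rpl24. The cause of these turns was not tested. With 6 to 17 counts of Rpl24 and 11 to 18 of Rpl36al, small changes were not detectable at this depth.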
